A study of Mus musculus with 4 samples.

Results

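The TGF-beta superfamily genes described here were 51 ligands, receptors, antagonists and signal transducers of the TGF-beta, BMP and activin pathways. They were chosen by name, from a fixed list, among the 31806 gene names on Agilent Whole Mouse Genome arrays, and all 51 were found. A gene's level is its background-corrected spot signal divided by the 75th percentile of its array, and the Agilent software marks whether a spot was well above background. Of the 51 genes, 43 were well above background on all 4 arrays, 4 were so on some arrays, and 4 on none.

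Total RNA of mouse embryonic fibroblasts (MEFs), primary cells grown from dissociated mid-gestation embryos, was measured in logarithmic growth in serum-containing medium. All MEFs were on the C57BL/6J background. There were 4 arrays with 1 per group: CycG2-/- (labelled G2KO), CycG2+/+ (labelled G2WT), CycG1-/-CycG2-/- (the double knockout, DKO) and CycG1+/+CycG2+/+ (labelled G1G2WT). CycG1 and CycG2 are the cyclins encoded by Ccng1 and Ccng2, and the study asked what their loss does to gene expression in these cells. The Ccng1 allele has its coding exons replaced by a selection cassette, and the Ccng2 allele came from an earlier line. How many embryos or cultures stand behind each array is not given in the sources used here. With 1 array per group there is no replicate of any genotype, so all differences below are ratios between single arrays, given with no test.

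Ccng1 checked the DKO label, with levels of 1.98 on the array labelled G2KO, 9.45 on the array labelled G2WT, 0.00685 on DKO, where it was not well above background, and 1.66 on G1G2WT. That made Ccng1 at least 228-fold lower in DKO than in G1G2WT. The Ccng2 probe, with levels between 0.0619 and 0.104, did not separate the groups, and it is not known whether it lies in the deleted part. The array labelled G2KO was closer to G1G2WT than the array labelled G2WT was: log2 ratios had an SD of 0.538 against 1.02 over the 19466 genes well above background on every array. By these labels Sox2 and Pdgfra, markers of neural progenitors and fibroblasts, had log2 ratios beyond -8.49 and 7.93 in the G2KO comparison, as limits. The study's own gene list for that comparison gives Sox2, Pdgfra, Lox and Chrdl1 the opposite direction. Whether the labels G2KO and G2WT are exchanged is not settled here, so directions in that comparison are by label only, and every sign in it turns if they are. All 14 fibroblast markers were well above background on each array except that labelled G2WT, where Pdgfra, Fap and Lum were not. In DKO 13 of the 14 were lower than on G1G2WT, but 7 of the 14 were within 2-fold, and the median log2 ratio was -0.51. At least 4-fold lower were 4 (Postn 186-fold, Pdgfra 176-fold, Thy1 18.0-fold, Pdgfrb 13.1-fold), where 4.03% of all genes were, and Dcn was at least 4-fold higher. The 14 summed to 396.8 on DKO and 505.9 on G1G2WT, and to 400.2 and 291.7 on the arrays labelled G2KO and G2WT. Between the WT arrays, 8 of the 14 were at least 4-fold higher on G1G2WT. Of 12 mesothelial markers, 11 were at least 4-fold higher in DKO than in G1G2WT, with a summed level of 150.2 on DKO against 0.732 to 1.64 on the other arrays. Wt1, Upk3b, Upk1b, Lrrn4 and Gpm6a were well above background only on DKO. The 6 neural progenitor markers summed to 30.6 on the array labelled G2WT, with Nes at 28.0 and Sox2 at 2.37, and to between 1.46 and 2.21 elsewhere. The part of these cell type markers in the ratios below was not tested, and in bulk RNA fewer cells of a type and less RNA per cell cannot be told apart.

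Ligands of this superfamily are secreted dimers that assemble type I and type II serine/threonine kinase receptors on the cell surface. TGF-betas and activins signal mainly through SMAD2 and SMAD3, BMPs and many GDFs through SMAD1 and SMAD5, and both branches share SMAD4. TGF-beta is secreted in a latent form that is stored on matrix-bound latent TGF-beta binding proteins, while BMPs and activins are held in check by secreted antagonists such as gremlin, noggin, chordin and follistatin. In fibroblasts TGF-beta drives matrix synthesis and the contractile myofibroblast state, and BMPs induce the ID inhibitors of transcription.

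In DKO MEFs, the genes that differed 4-fold from G1G2WT encoded secreted ligands, antagonists and matrix proteins and the transcriptional inhibitor ID4. No receptor or SMAD gene did so, although the receptor gene Bmpr1b passed 4-fold against the other WT array. With so few receptor and SMAD genes, that is not far from the share of 8.07% among all genes. Of 47 genes compared, 7 were at least 4-fold lower in DKO than in G1G2WT: Tgfbi, Ltbp2, Bmp3, Bmp4, Inhbb, Chrdl1 and Id4. The share of all genes at least 4-fold lower was 4.03%, against 14.9% of these genes. At least 4-fold higher were 3 genes, Gdf6, Bmp2 and Fstl3 (6.38%), against 4.04% of all genes. In either direction the share was 21.3%, against 8.07% of all genes. The median log2 ratio was -0.67, with 33 of the 47 genes below 0, while the median over all 22881 genes compared was 0.03. The threshold fell between Bmp4, at -2.07 just inside it, and Bmpr1b, at -1.91 just outside. The array software put the measurement error of a ratio at 0.20 to 0.31 on the log2 scale for the 44 genes measured on both arrays; that error does not cover differences between cultures.

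**Figure D1:**
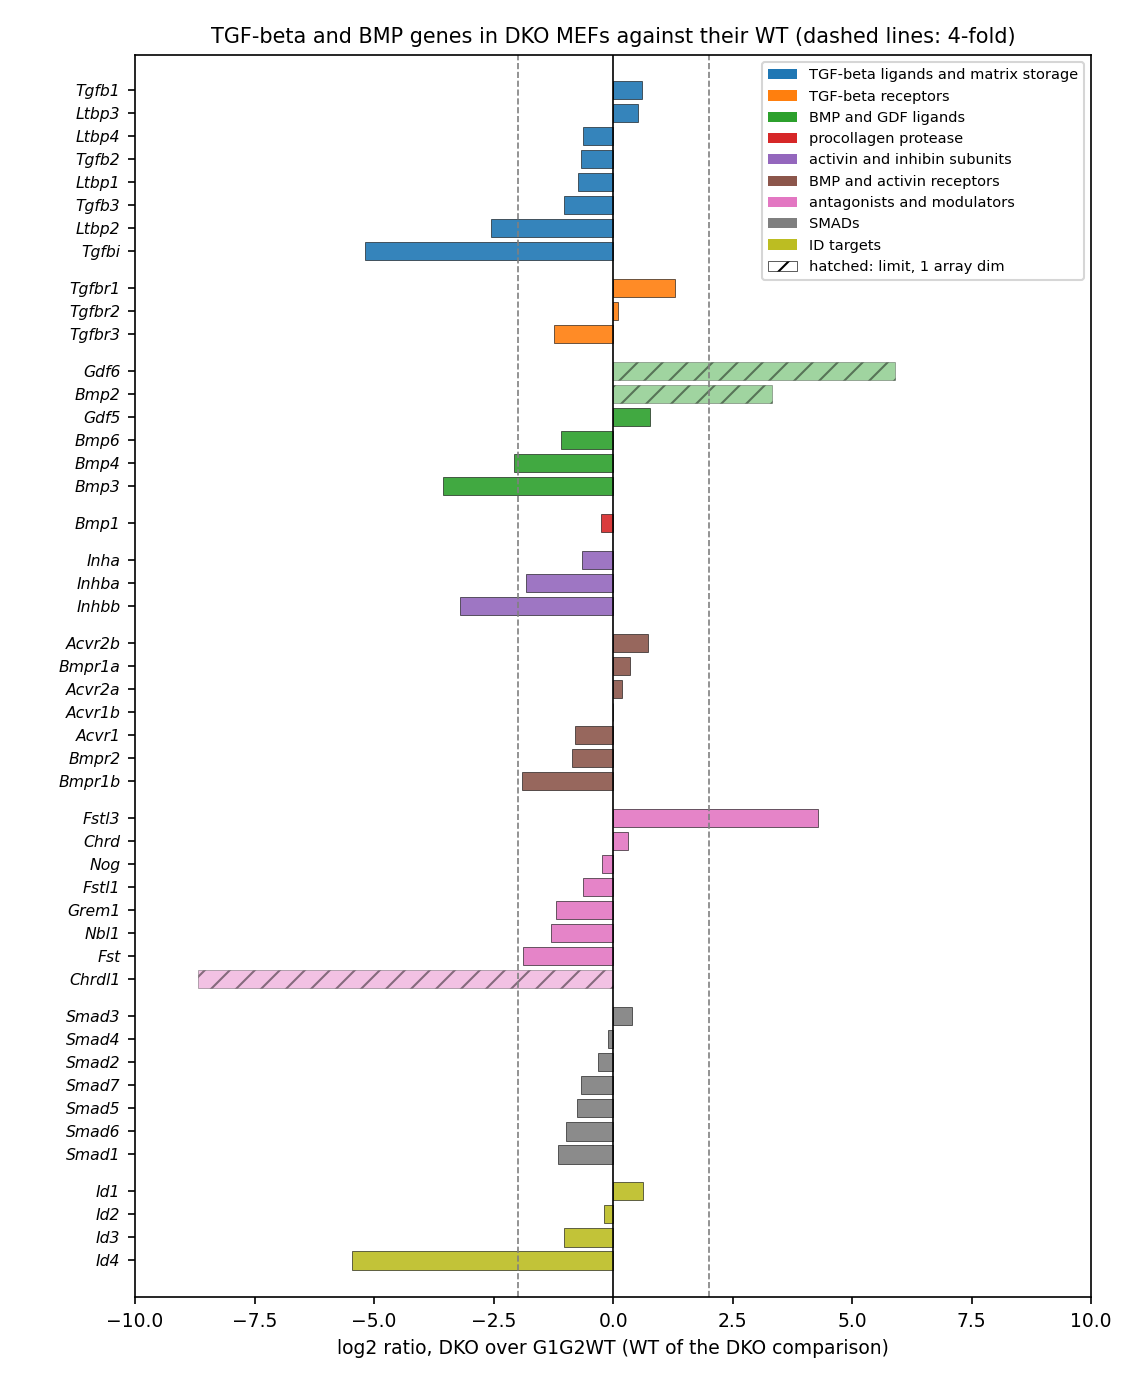
Log2 ratio of DKO over G1G2WT for each of the 47 genes compared, grouped by role. Bars left of 0 are lower in DKO, dashed lines mark 4-fold, and hatched bars are limits because 1 of the 2 arrays was not well above background. The receptor and SMAD bars all lie inside the dashed lines, and the longest bars are Chrdl1 at -8.69, Gdf6 at 5.91, Id4 at -5.46 and Tgfbi at -5.19.

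Among TGF-beta ligands and their matrix proteins, no ligand gene passed 4-fold between DKO and G1G2WT, while Tgfbi and Ltbp2, which encode matrix proteins, did. Tgfbi encodes a secreted matrix protein that TGF-beta induces. Its level was 6.38 on the array labelled G2KO, 0.244 on that labelled G2WT, 0.185 on DKO and 6.75 on G1G2WT (probe at chr13:56740460-56740519, mm9). The arrays thus fell into a high and a low pair, and DKO was 36.4-fold lower than G1G2WT (log2 ratio -5.19). Ltbp2 encodes a latent TGF-beta binding protein family member that associates with elastic fibres. Its level was 30.3 on the array labelled G2KO, 0.196 on that labelled G2WT, 8.05 on DKO and 47.3 on G1G2WT (chr12:86124167-86124226, mm9). DKO was 5.87-fold below G1G2WT, yet 41.0-fold above the array labelled G2WT, which was the lowest by far. Tgfb1, Tgfb2 and Tgfb3, which encode the TGF-beta ligands, had DKO log2 ratios of 0.61, -0.67 and -1.04. Ltbp1, Ltbp3 and Ltbp4, which encode other latent TGF-beta binding proteins, stayed between -0.73 and 0.52. Set against the array labelled G2WT, the DKO log2 ratio was 2.65 for Tgfb3 and -0.40 for Tgfbi. Which of these genes passed 4-fold thus depended on the WT array.

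The promoters of Tgfbi and Ltbp2 are shown because these genes had the strongest ratios of the TGF-beta group and were high and low partly on the same arrays. Each is the 250 bases before the start in RefSeq, assembly GRCm38.p6, in the direction of the gene: Tgfbi at chr13:56609336-56609585 on the + strand and Ltbp2 at chr12:84876492-84876741 on the - strand. Capitals mark 2 motifs, the SMAD box CAGAC or its reverse complement GTCTG, and the GC-rich element GGCGCC, which reads the same on both strands and does not overlap the other.
Tgfbi: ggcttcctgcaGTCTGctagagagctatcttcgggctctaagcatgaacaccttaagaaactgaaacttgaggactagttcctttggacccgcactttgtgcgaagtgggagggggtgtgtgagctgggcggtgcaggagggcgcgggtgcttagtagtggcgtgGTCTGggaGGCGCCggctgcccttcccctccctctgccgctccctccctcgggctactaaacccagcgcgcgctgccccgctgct
Ltbp2: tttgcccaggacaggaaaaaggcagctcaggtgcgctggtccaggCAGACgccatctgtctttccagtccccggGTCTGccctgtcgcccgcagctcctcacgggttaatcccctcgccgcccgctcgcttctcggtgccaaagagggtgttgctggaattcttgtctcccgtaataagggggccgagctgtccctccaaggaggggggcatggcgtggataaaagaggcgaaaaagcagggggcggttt
Both windows hold 2 SMAD boxes, and that of Tgfbi also 1 GC-rich element. The SMAD box occurs in 42.2% of all 32851 promoter windows of that length and in 46.5% of the 43 windows, from 35 genes, found for the genes described here. Matches describe these letters and do not show binding.

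BMP and GDF ligands differed in both directions in DKO. Gdf6, a ligand of joint, eye and skull development, had levels of 0.00148 on the array labelled G2KO, 0.00417 on that labelled G2WT, 0.614 on DKO and 0.00469 on G1G2WT (chr4:9789396-9789455, mm9). Only the DKO spot was well above background, and DKO was at least 59.9-fold higher than G1G2WT. Bmp2, a ligand of bone and heart development, had levels of 0.0126, 0.00714, 0.102 and 0.00509 in the same order of arrays (chr2:133388260-133388319, mm9). It was dim on both WT arrays and at least 9.96-fold higher in DKO than in G1G2WT. Both genes stood higher on DKO than on every other array.

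Bmp4 and Bmp3 went the other way. Bmp4, a ligand of mesoderm and limb patterning, had levels of 3.39 on the array labelled G2KO, 0.846 on that labelled G2WT, 5.42 on DKO and 22.8 on G1G2WT (chr14:47003391-47003450, mm9). The G1G2WT array was the highest of the 4, and DKO was 4.21-fold below it but above the other arrays. Another Bmp4 probe, for the same transcript, was not well above background on any array, at 0.00198 to 0.00734. It gave no ratio, so every Bmp4 ratio here rests on the brighter probe alone. Bmp3, which encodes a BMP family member known to oppose BMP signalling, had levels of 0.0573, 0.0176, 0.0249 and 0.293 in the same order (chr5:99308890-99308949, mm9). It was likewise highest on G1G2WT, with DKO 11.7-fold lower. Bmp6 had levels of 0.227, 0.00386, 0.0409 and 0.0868 (chr13:38591479-38591538, mm9), dim only on the array labelled G2WT, and its DKO log2 ratio was -1.09. Gdf5, a ligand of joint development, was at 0.77. Bmp5, Bmp7 and Gdf10 were not well above background on any array. Bmp1, which despite its name encodes a procollagen protease, was at -0.26.

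Activin subunits were lowest on DKO. Inhbb encodes the beta B subunit of activins and inhibins, and its level was 0.771 on the array labelled G2KO, 1.59 on that labelled G2WT, 0.188 on DKO and 1.72 on G1G2WT (chr1:121312160-121312219, mm9). DKO was below each other array, 9.19-fold below G1G2WT and 4.11-fold below the nearest, that labelled G2KO. Inhba, which encodes the beta A subunit, had levels of 22.7, 16.2, 4.72 and 16.6 in the same order, so that DKO was again the lowest array. Its log2 ratio was -1.81 against G1G2WT, -1.77 against the array labelled G2WT and -2.26 against that labelled G2KO. Inha, the alpha subunit that turns activin into inhibin, differed less, with a log2 ratio of -0.65 against G1G2WT.

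Of the antagonists, 1 was at least 4-fold higher and 1 at least 4-fold lower in DKO than in G1G2WT. Fstl3 encodes a secreted follistatin relative that binds activins and myostatin. Its level was 0.479 on the array labelled G2KO, 5.19 on that labelled G2WT, 3.50 on DKO and 0.181 on G1G2WT (chr10:79244916-79244975, mm9). DKO was 19.4-fold higher than G1G2WT but lay below the array labelled G2WT. Chrdl1 encodes a chordin-like BMP antagonist, with levels of 0.435, 0.0102, 0.00341 and 3.02 in the same order (chrX:139732534-139732593, mm9). It was dim on DKO, at least 414-fold below G1G2WT. A further pair of Chrdl1 probes, which the files assign to another transcript, gave DKO log2 limits of -4.55 and -4.48, in the same direction; as limits they do not give the size. Fst, which encodes the activin antagonist follistatin, had levels of 1.21, 6.34, 0.578 and 2.13 (chr13:115243565-115243624, mm9), lowest on DKO, and a DKO log2 ratio of -1.88. Fst was at -3.45 against the array labelled G2WT and -2.67 against the mean of both WT arrays, past 4-fold in either case. Against G1G2WT the gremlin gene Grem1 was at -1.20, Nbl1 of the DAN family at -1.29 and the follistatin-like Fstl1 at -0.63. The noggin gene Nog at -0.23 and the chordin gene Chrd at 0.30 differed less than 2-fold. Bambi, a decoy receptor, was not well above background on any array.

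None of the 3 TGF-beta receptor genes, 7 BMP and activin receptor genes or 7 SMAD genes differed 4-fold between DKO and G1G2WT, between the arrays of the G2KO comparison, or between the WT arrays. Of all genes, 8.07%, 5.73% and 7.39% did so in these comparisons. With so few receptor and SMAD genes, a count of 0 is not far from those shares. Tgfbr1, the type I TGF-beta receptor, had levels of 1.03 on the array labelled G2KO, 0.985 on that labelled G2WT, 2.37 on DKO and 0.965 on G1G2WT. DKO was the highest and the other arrays nearly coincided, with DKO log2 ratios of 1.21 to 1.30 against them. A dimmer Tgfbr1 probe had levels of 0.0336, 0.0380, 0.0481 and 0.0330 in the same order. On that probe DKO was again the highest array, but its log2 ratio against G1G2WT was only 0.54. Tgfbr2, the type II receptor that binds TGF-beta first, was at 0.09 against G1G2WT, and Tgfbr3, the coreceptor betaglycan, at -1.24. Bmpr1b, a type I BMP receptor, had the lowest receptor ratio in DKO, with levels of 0.177, 0.318, 0.0355 and 0.134. DKO was the lowest array, by 3.76-fold against G1G2WT. Its log2 ratio was -3.16 against the array labelled G2WT and -2.54 against the mean of both WT arrays, past 4-fold in either case. The other BMP and activin receptor genes lay between -0.87 for Bmpr2 and 0.73 for Acvr2b.

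Smad4, the common partner of all receptor-activated SMADs, had levels of 5.31 on the array labelled G2KO, 5.53 on that labelled G2WT, 5.11 on DKO and 5.54 on G1G2WT. On this probe the highest and the lowest array differed 1.08-fold, and 0.38% of all genes had a smaller range. Another Smad4 probe of similar brightness had a wider range, from 4.60 on the array labelled G2KO to 5.57 on that labelled G2WT. The 7 SMAD ratios in DKO ran from -1.16 for Smad1, a BMP SMAD, to 0.40 for Smad3, a TGF-beta SMAD, with a median of -0.67. The inhibitory SMADs, which are themselves induced by the pathways they restrain, were at -0.99 for Smad6 and -0.67 for Smad7. Smad7 was lowest on DKO, with levels of 3.90, 4.44, 1.48 and 2.36.

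**Figure D2:**
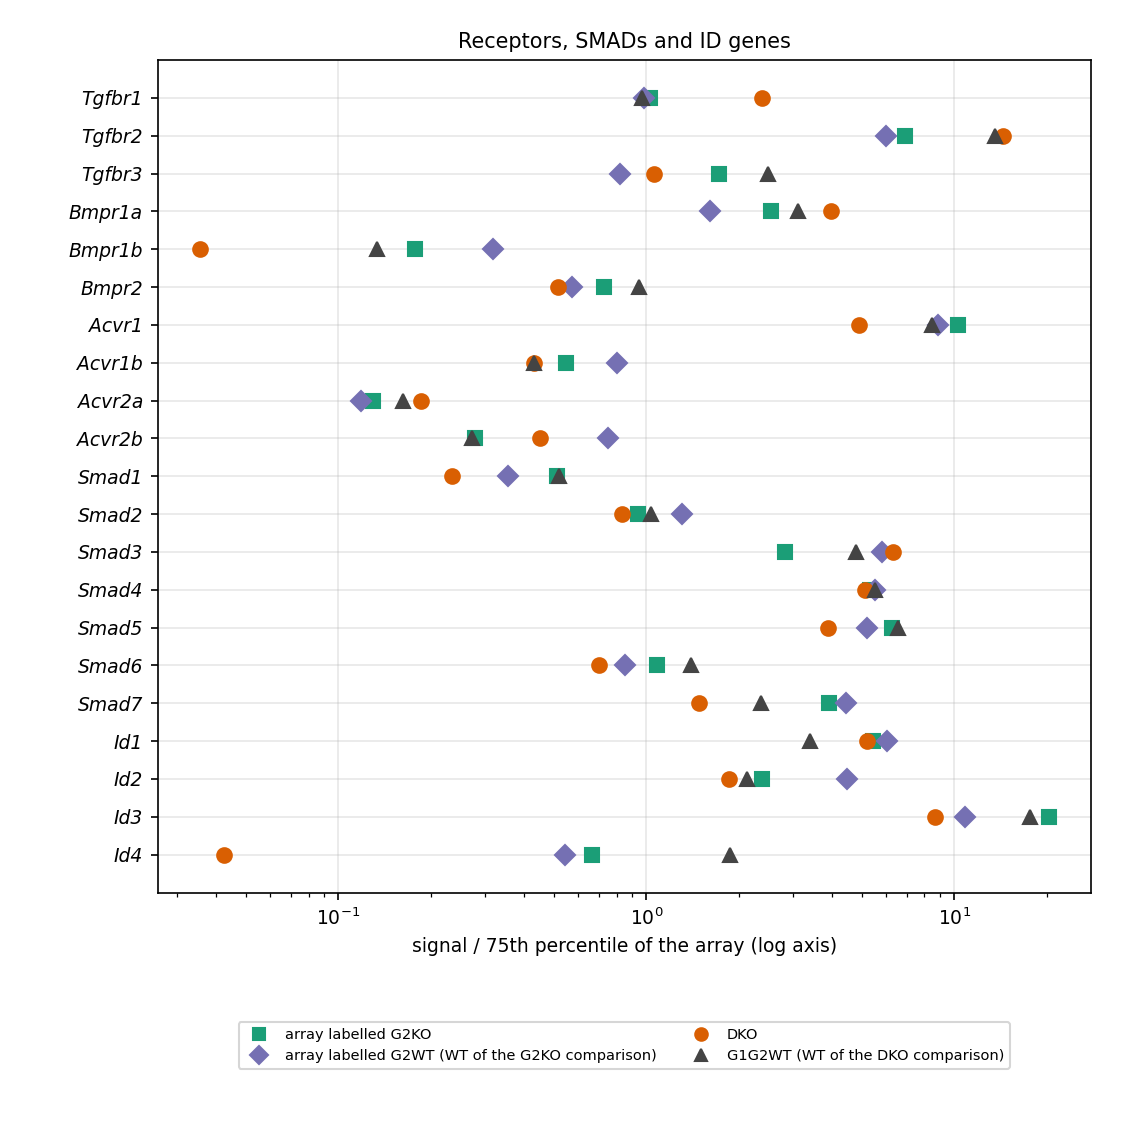
Level of each receptor, SMAD and ID gene on each of the 4 arrays, as signal over the array's 75th percentile on a log axis, with 1 symbol per array. Smad4 shows nearly coinciding symbols at 5.11 to 5.54, while the DKO symbol of Id4, at 0.0425, and of Bmpr1b, at 0.0355, stands to the left of the others. Positions of different genes are not comparable, since each gene has its own probe.

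Of the ID genes, which encode dominant-negative partners of basic helix-loop-helix factors and are classical BMP targets, only Id4 differed 4-fold in any of the 3 comparisons. Its level was 0.664 on the array labelled G2KO, 0.546 on that labelled G2WT, 0.0425 on DKO and 1.87 on G1G2WT (chr13:48358668-48358727, mm9). DKO was below each other array, 44.1-fold below G1G2WT and 12.9-fold below the nearest. Id1, Id2 and Id3 had DKO log2 ratios of 0.62, -0.20 and -1.02.

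Promoter windows of Id2, Id3 and Id4 are shown to set the gene that stood apart beside its relatives, with the same capitals and source as above. They lie at chr12:25096093-25096342 on the - strand, chr4:136143572-136143821 on the + strand and chr13:48260866-48261115 on the + strand.
Id2: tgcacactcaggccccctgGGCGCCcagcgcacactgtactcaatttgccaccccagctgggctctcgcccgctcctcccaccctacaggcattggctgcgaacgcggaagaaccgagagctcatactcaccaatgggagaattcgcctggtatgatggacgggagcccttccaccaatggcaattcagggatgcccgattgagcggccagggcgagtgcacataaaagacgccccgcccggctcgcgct
Id3: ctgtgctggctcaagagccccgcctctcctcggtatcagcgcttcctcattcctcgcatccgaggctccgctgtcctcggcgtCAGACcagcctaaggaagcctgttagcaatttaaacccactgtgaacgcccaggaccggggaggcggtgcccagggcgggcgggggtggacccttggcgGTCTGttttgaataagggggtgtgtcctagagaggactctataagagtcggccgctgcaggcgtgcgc
Id4: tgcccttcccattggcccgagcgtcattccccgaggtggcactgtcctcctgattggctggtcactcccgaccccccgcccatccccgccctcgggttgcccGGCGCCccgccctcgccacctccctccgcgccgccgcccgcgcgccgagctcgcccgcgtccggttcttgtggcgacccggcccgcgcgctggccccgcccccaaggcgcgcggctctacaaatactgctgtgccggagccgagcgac
The window of Id3 holds 2 SMAD boxes and no GC-rich element, and those of Id2 and Id4 hold 1 GC-rich element and no SMAD box. The GC-rich element occurs in 9.59% of all promoter windows and in 27.9% of those of the genes described here. Id2 and Id4 thus share these counts and not the DKO ratio.

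In the G2KO comparison, the 8 genes past 4-fold encoded secreted ligands, antagonists and matrix proteins. Of 46 genes compared, 6 exceeded 4-fold in favour of the array labelled G2KO over that labelled G2WT: Ltbp2, Chrdl1, Bmp6, Tgfbi, Tgfb3 and Bmp4. That is 13.0% of these genes, against 3.71% of all genes. At least 4-fold lower were 2 genes, Fst and Fstl3 (4.35%, against 2.02% of all genes). Both directions together made 17.4%, against 5.73%. Ltbp2 had the highest ratio, 155-fold (log2 ratio 7.27), followed by Chrdl1 at 42.8-fold, Tgfbi at 26.1-fold and Bmp6, as a limit, at least 31.7-fold higher. Other Chrdl1 probes gave log2 ratios of 0.97 and at least 2.56 in place of 5.42. Tgfb3, the ligand of palate and lung development, had levels of 18.5 on the array labelled G2KO, 2.71 on that labelled G2WT, 17.1 on DKO and 35.1 on G1G2WT (chr12:87397804-87397863, mm9). The array labelled G2WT was the low one, 6.82-fold below its partner. Bmp4, at 4.01-fold, was just inside the threshold and Bmp3, at 3.26-fold, just outside. Fstl3 was 10.8-fold lower and Fst 5.22-fold lower on the array labelled G2KO. The median log2 ratio of the 46 genes was 0.21, and that of all genes -0.17. Tgfbi, Ltbp2, Bmp4, Chrdl1 and Fstl3 were past 4-fold in the DKO comparison too, each in the opposite direction by label, and whether the ratios differ was not tested. With the labels of the G2KO comparison exchanged, their log2 ratios would be -4.71, -7.27, -2.0, -5.42 and 3.44, in the direction of the DKO ratios.

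The WT arrays, both labelled wild type, also differed past 4-fold for several genes. Of 45 genes compared, 7 were at least 4-fold higher on G1G2WT than on the array labelled G2WT: Chrdl1, Ltbp2, Tgfbi, Bmp4, Bmp3, Tgfb3 and Bmp6. That is 15.6%, against 4.63% of all genes. Fstl3 was the 1 gene at least 4-fold lower (2.22%, against 2.76% of all genes). Both directions together made 17.8%, against 7.39%. Chrdl1 differed 297-fold and Ltbp2 241-fold between these WT arrays, and Fstl3 28.7-fold in the other direction. With the labels of the G2KO comparison exchanged, 3 genes would be at least 4-fold higher and 0 lower between the WT arrays. The DKO comparison shares the G1G2WT array with this one, and the G2KO comparison shares the array labelled G2WT, so the lists of genes are not independent of each other. For Tgfbi, Ltbp2, Bmp3, Bmp4, Fstl3 and Chrdl1, the log2 ratio between the WT arrays was 4.79, 7.91, 4.06, 4.75, -4.84 and 8.22. The corresponding DKO log2 ratios were -5.19, -2.55, -3.55, -2.07, 4.27 and -8.69. For these genes, how DKO compared with WT depended on which WT array it was set against.

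**Figure D3:**
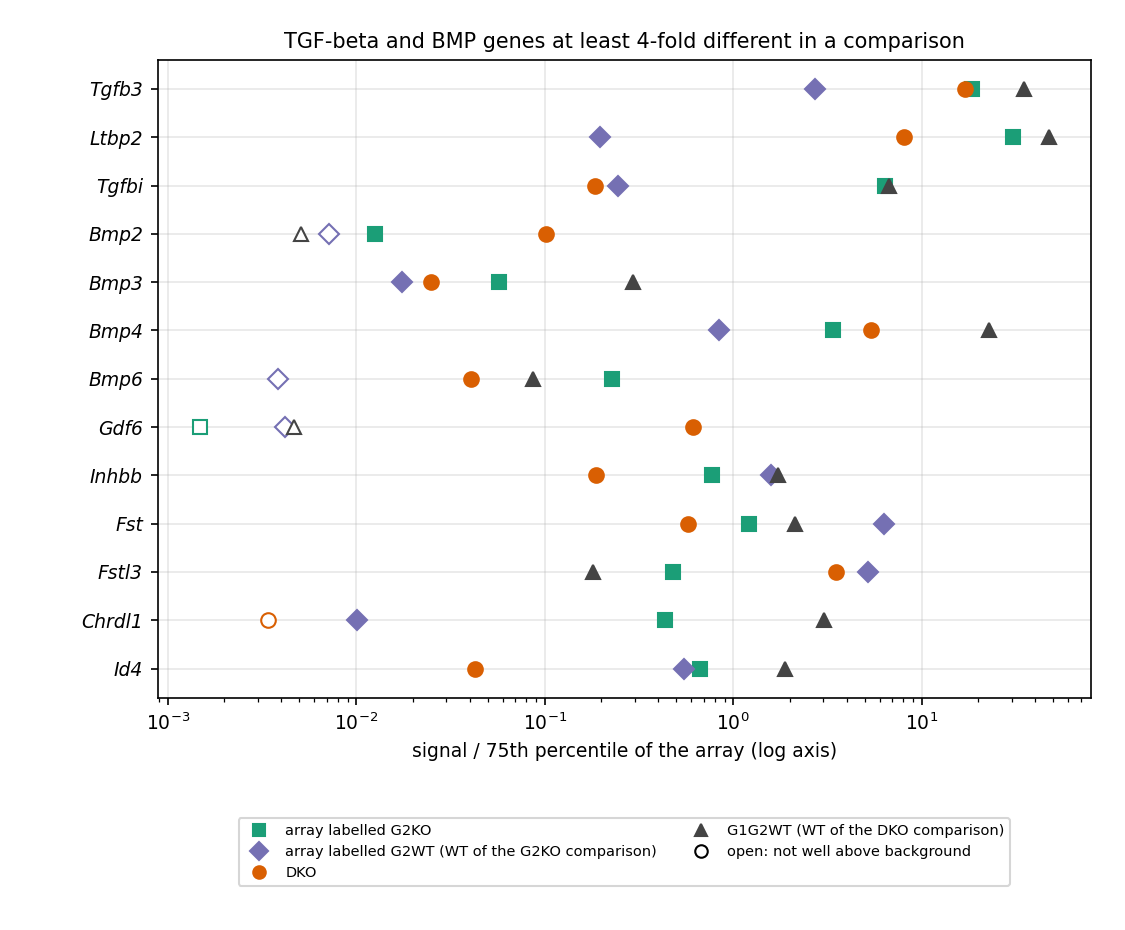
Level of the 13 genes that differed at least 4-fold in a comparison, on each of the 4 arrays, as signal over the array's 75th percentile on a log axis. Open symbols were not well above background. For Tgfbi the DKO and G2WT symbols lie together at 0.185 and 0.244 and the others at 6.38 and 6.75, whereas for Gdf6, Bmp2, Inhbb and Id4 the DKO symbol lies apart from all others.

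Set against the array labelled G2WT in place of G1G2WT, the DKO ratios of these genes separated into kinds. The log2 ratio was 5.36 for Ltbp2 and 2.68 for Bmp4, now higher in DKO, and 0.50 for Bmp3, -0.57 for Fstl3, -0.40 for Tgfbi and -0.48 as a limit for Chrdl1. Gdf6, Bmp2, Inhbb and Id4 kept their direction and stayed past 4-fold, with log2 ratios of at least 6.42, at least 3.83, -3.08 and -3.68. The same 4 genes were at least 4-fold from each of the other 3 arrays, by at least 59.9-fold for Gdf6, 8.10-fold for Bmp2, 4.11-fold for Inhbb and 12.9-fold for Id4. That made 2 of 47 genes higher and 2 lower on DKO than on every other array, where 2.69% and 1.3% of all genes were. With so few genes, these DKO counts are not far from those shares. The array labelled G2WT had 4 such genes, all lower, Ltbp2 by 41.0-fold, Tgfb3 by 6.29-fold, Bmp6 by at least 5.70-fold and Bmp4 by 4.01-fold, against 1.45% of all genes lower and 0.911% higher. G1G2WT had 3, all higher, Chrdl1 by 6.94-fold, Bmp3 by 5.11-fold and Bmp4 by 4.21-fold, against 0.843% of all genes higher and 0.0431% lower. The array labelled G2KO had 0 of 46, where 0.403% of all genes were higher and 0.0189% lower.

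Every pair of arrays was spread more widely over the 43 genes measured on all 4 arrays than over all genes. The SD of log2 ratios was smallest between the array labelled G2KO and G1G2WT, at 0.74 against 0.54 for all genes, and largest between the WT arrays, at 2.06 against 1.02. DKO against G1G2WT came to 1.63 against 1.04, and the arrays of the G2KO comparison to 1.71 against 0.88. The median range of a gene over the 4 arrays was 2.35-fold, and 1.74-fold for all genes. DKO held the lowest level of 20 of the 43 genes (46.5%, against 31.0% of all genes), and G1G2WT the highest level of 20 (46.5%, against 22.2%).

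**Figure D4:**
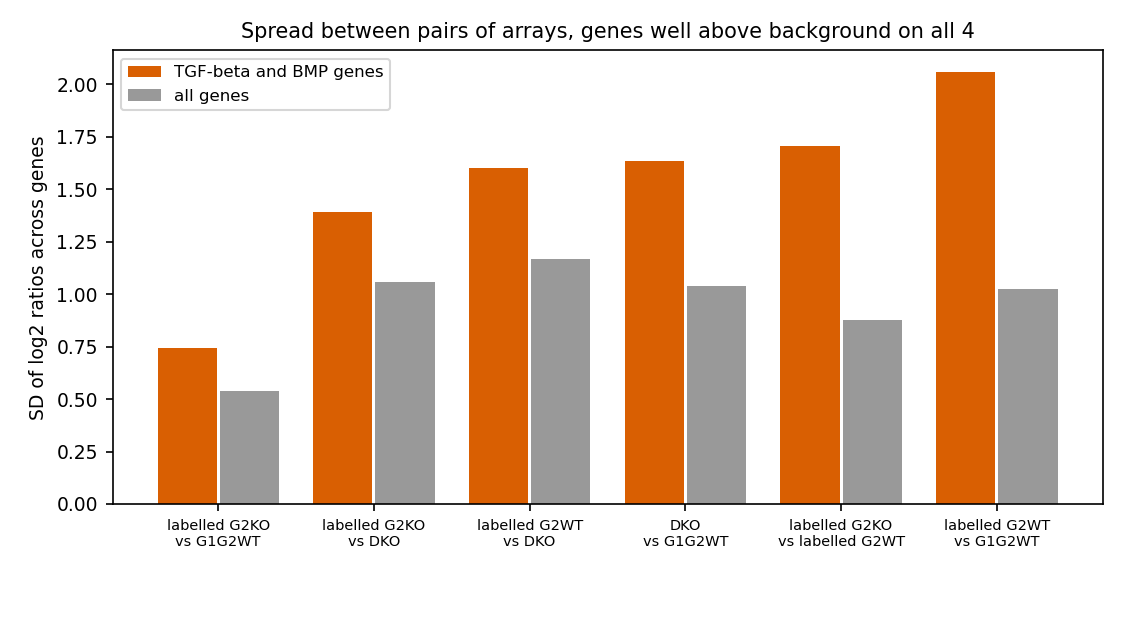
SD of log2 ratios across genes for each pair of arrays, for the 43 TGF-beta and BMP genes and for all 19466 genes well above background on all 4 arrays. The pair labelled G2KO and G1G2WT has the shortest bars, at 0.74 and 0.54, and the WT pair the tallest bar of the TGF-beta and BMP genes, at 2.06.

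A list of 50 further genes of the pathways was read in the same way. Of 38 compared between DKO and G1G2WT, 2 were at least 4-fold higher, 4 at least 4-fold lower and 27 within 2-fold, with a median log2 ratio of -0.07. Over all genes, 4.04% were at least 4-fold higher and 4.03% lower, with a median of 0.03. Lefty1, a nodal antagonist, was dim on all arrays but DKO, where it was at least 96-fold higher than on G1G2WT, and Dcn, the TGF-beta-binding proteoglycan decorin, was 16.6-fold higher. Among the lower genes were Fbn2, the fibrillin of microfibrils, 159.7-fold, Gdf1, a nodal partner, 26.6-fold, and Lrrc32, which displays latent TGF-beta on the cell surface, 7.70-fold. Fbn2 and Lrrc32 were also low on the array labelled G2WT, at levels of 0.0250 and 0.564 against 4.23 and 6.92 on G1G2WT. Dcn, in contrast, had its highest level on DKO, 49.0, against 0.0722 to 2.95 elsewhere.

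Among textbook response genes the median DKO log2 ratio was -0.66 for the TGF-beta list and -2.68 for the BMP list, beside 0.03 for all genes. Of 13 TGF-beta response genes, 0 were at least 4-fold higher and 3 at least 4-fold lower in DKO, where 4.04% and 4.03% of all genes were. The 3 were Postn, the matrix protein periostin, 186-fold, Tagln, the actin-binding transgelin, 11.3-fold, and Acta2, smooth muscle actin, 4.51-fold. Acta2 and Tagln are also smooth muscle markers, and the 5 smooth muscle markers summed to 42.6 on DKO against 214.5 to 362 elsewhere. Most of these sums came from Acta2 and Tagln themselves, with levels of 29.6 and 11.6 on DKO. Of the 4 smooth muscle markers compared, 2 were lower in DKO than in G1G2WT and 2 higher. The higher ones were Cnn1, at a log2 ratio of 0.17, and Myh11, at a limit of 1.40. Postn is also a fibroblast marker, and was at 0.116 on DKO and 0.566 on the array labelled G2WT against 21.6 on G1G2WT. The immediate TGF-beta targets Ctgf and Skil had log2 ratios of 0.06 and -0.66. Of 9 BMP response genes compared, 5 were at least 4-fold lower in DKO and 1 at least 4-fold higher. The lower ones encode transcription factors, at 13.2-fold for Hey1, 8.84-fold for Tbx20, 7.01-fold for Msx2, 6.43-fold for Msx1 and at least 23.8-fold for Dlx5. Dlx5 was also low on the array labelled G2WT, at 0.0115 against 0.00611 on DKO and 0.174 on G1G2WT. Gata4, a transcription factor of heart and mesothelium, was 361-fold higher, at 5.04 on DKO and 0.0140 to 0.0150 on the other arrays. Msx1, Msx2, Hey1 and Tbx20 had their lowest level on DKO, as Id4 did.

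Where several probes of a gene gave ratios, these were mostly alike. Bmp4 is not covered by this, since its other probe was dim on every array. Of the 51 genes, 17 had more than 1 probe, and the median gap between the probe used and the next was a log2 difference of 0.21 for DKO, 0.17 for the G2KO comparison and 0.26 between the WT arrays. The largest gaps were 0.80 in DKO, for Gdf5, and 4.46 and 5.33 in the others, both for Chrdl1. Pairs in which a probe gave only a limit were left out. Chrdl1 is therefore not in the DKO gaps, where its probes gave limits of -8.69, -4.55 and -4.48. Tgfb1 and Tgfb3 were each printed as 10 spots, whose log2 signals had an SD of 0.026 to 0.047 within an array.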

How the data were processed

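The authors hybridised Cy3-labelled cRNA of each MEF preparation to 1 single-color Agilent Whole Mouse Genome array, and all 4 arrays lay on 1 slide. This follows the labels and files; the study's methods describe dye-swapped arrays for the G2KO comparison. The deposited values are spot intensities that Agilent Feature Extraction (10.7.3.1 in the file headers, 10.5.1.1 in the submitters' processing notes) corrected for background and spatial trends; they are not scaled between arrays. The deposited table of processed values held the same intensities, with a largest log2 difference of 0. The error column that the authors deposited beside each intensity gave the measurement error of a ratio.

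Control spots and spots marked as outliers (107 to 140 per array) were left out, no spot was saturated, and spots of a probe were averaged. Signals were divided by the array's 75th percentile (1586 to 2234), and log2 ratios were taken between arrays. Between 64.98% and 72.2% of probes were well above background; precision is limited by having 1 array per group. A comparison used genes that either of its arrays measured well above background. Where the other array was dim, the gene took its own signal there or, if that was lower, the faintest signal still well above background, which makes the ratio a limit ("at least"). Medians and counts take such ratios at their limit. A gene with several probes was read from the probe with the highest mean log2 level. Every gene at least 4-fold different in any of the 3 comparisons was named with all its levels, the others by role as ranges. Genes, lists and comparisons, including the count of genes apart from all other arrays, were chosen with earlier results of these data known.

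The files place probes on mm9, and no annotation of that build was used here. Promoter windows come from RefSeq tables of GRCm38.p6. Alternatives were normexp correction (limma 3.58.1, R 4.3.3, offset 50), quantile, median and no scaling, the deposited table, other filters for dim spots, 2-fold and 10-fold thresholds, other WT controls, and the median over a gene's probes. The ratio script was tested on simulated data. Some genes of the further lists are counted there and not reported by name here. Python 3.11.15, numpy 2.4.6, pandas 2.3.3 and matplotlib 3.10.9 were used.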

Additional observations from a re-analysis of the deposited data

Results flagged for a closer look

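Each of the following genes was at least 4-fold different in both knockout comparisons and in opposite directions by label; the difference between the comparisons was not tested. The labels of the G2KO comparison are in doubt, since the study's own gene list gives some genes, Chrdl1 among them, the opposite direction. With those labels exchanged, the second value of each gene below changes sign and lies in the direction of the first. Tgfbi had a log2 ratio of -5.19 for DKO over G1G2WT and 4.71 for the array labelled G2KO over that labelled G2WT. Ltbp2 was at -2.55 and 7.27, Bmp4 at -2.07 and 2.0, Fstl3 at 4.27 and -3.44, and Chrdl1 at -8.69 (a limit) and 5.42, in the same order. With 1 array per group, no group was large enough to look for a sample far from its fellows.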

How the results depend on the processing

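No paired analysis was possible because each group has 1 array. The control array mattered most. With the WT arrays of the 2 comparisons exchanged, 6 genes in place of 3 were at least 4-fold higher in DKO, 4 in place of 7 lower, and 0 in place of 6 higher on the array labelled G2KO. Log2 ratios reversed for DKO in Ltbp2 (5.36), Bmp3 (0.50), Bmp4 (2.68) and Fstl3 (-0.57), and for the array labelled G2KO in Tgfb3 (-0.92), Tgfbi (-0.083), Ltbp2 (-0.64), Bmp4 (-2.75), Fstl3 (1.41) and Chrdl1 (-2.80). Against the mean of both WT arrays, Ltbp2 (1.40) and Bmp4 (0.30) reversed for DKO and Bmp4 (-0.37) for the array labelled G2KO, which kept 3 genes higher and 0 lower. The cause was not tested. With the labels of the G2KO comparison exchanged, an alternative chosen after seeing the data, 2 genes were higher and 6 lower in G2KO (Tgfb3 -2.77, Ltbp2 -7.27, Tgfbi -4.71, Bmp4 -2.0, Bmp6 -4.99, Chrdl1 -5.42, Fst 2.38, Fstl3 3.44). Between the WT arrays 3 were then higher and 0 lower, and Bmp6 (-1.39) reversed. Under the alternatives that kept both the labels and the control array, 0 of the 26 ratios past 4-fold reversed. Normexp moved the DKO ratios of Bmp2 to at least 1.76, Bmp3 to -1.95 and Gdf6 to at least 4.01. It moved those of Id4 to -4.29 and of Chrdl1 to -6.09 as a limit. In the G2KO comparison it moved Chrdl1 to 3.38 and Bmp6 to at least 2.78, and between the WT arrays Bmp6 to at least 1.65. Bmp2 and Bmp3 in DKO and Bmp6 between the WT arrays were then under 4-fold, Bmp2 and Bmp6 as limits. Bmp4 in the G2KO comparison was at 1.96 with median scaling, and Fst at -1.89 without scaling, both under 4-fold.

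Requiring both arrays above background left 1 gene higher in DKO, since dim sides were dropped. At 2-fold, 17 genes were lower in DKO, 6 lower on the array labelled G2KO, and 12 higher and 6 lower on G1G2WT than on the array labelled G2WT. At 10-fold, 4 were lower in DKO and 1 on the array labelled G2KO. Without scaling, and in the deposited table, 1 gene was lower on the array labelled G2KO, as the median ratio of all genes was 0.33 in place of -0.17. That median was 0.14 in place of 0.03 for DKO with normexp, and between the WT arrays, in place of -0.08, it was 0.17 without scaling, -0.26 with median scaling and 0.03 without the filter. Of the recomputed counts, leaving out the exchanged labels, 54 stayed within 1.5 times the original and 14 did not. Of the ratios so recomputed, 196 moved by less than the SD of 1.02 between the WT arrays, 30 by more without reversing, and 13 reversed.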
